A study of Homo sapiens with 6 samples.

Results

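ATP-binding cassette (ABC) genes were followed in MDA-MB-231 cells, a mesenchymal line established from human breast cancer, after knockdown of VASP, which promotes the growth of actin filaments. The members were all gene symbols made of ABC, a subfamily letter of A to G and a number, which gave 46 of the 61155 symbols in the count table, and 30 of them passed the filter on low counts, among 16633 genes tested. RNA was sequenced from 3 VASP knockdown libraries and 3 control libraries, harvested 48 hours after transfection, with 1 ug of total RNA per library. Sample titles name shVASP and the hairpin vector plko, but elsewhere the labels speak of a VASP siRNA and a negative control siRNA given by transient transfection, and both sets of labels give the same groups. All 6 libraries come from 1 cell line, and no label says whether libraries within a group are separate cultures, so the tests measure the spread between these libraries.

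ABC proteins share a nucleotide-binding domain that binds and hydrolyses ATP. In subfamilies A, B, C, D and G this domain drives membrane transport of lipids, sterols, drugs, conjugates, acyl-CoA, porphyrins or peptides. Members of subfamilies E and F lack membrane-spanning segments and act on ribosomes, so the family name covers some genes that are not transporters. In tumours the family is best known for efflux pumps, such as P-glycoprotein (ABCB1), the multidrug resistance proteins of subfamily C and breast cancer resistance protein (ABCG2), which expel drugs. ABCC13 keeps a family symbol although it has no coding transcript in GENCODE 29, and the symbol rule leaves out 3 family genes with other names, TAP1, TAP2 and CFTR.

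The knockdown libraries held 396, 379 and 360 VASP counts, against 4544, 5036 and 4708 in the control libraries, 12.9-fold lower (log2 fold change -3.69 with SE 0.06, edgeR adjusted p = 8.3e-24). Totals were 28997712 to 30055503 counts in knockdown libraries and 28856610 to 29897430 in control libraries, so that a floor of 3 counts lay at 0.0978 to 0.104 CPM, that is counts scaled to a common library size. The mesenchymal markers of the line were high in both groups, with 8 of 8 at 1 TPM or more (the level corrected for exon length and library size) and a summed level of 3617 to 3977 TPM in knockdown libraries and 3739 to 3889 TPM in control libraries. Leukocyte markers summed to at most 0.525 TPM in knockdown libraries and 0.337 TPM in control libraries.

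The nucleotide-binding loop known as Walker A is the sequence feature the members share. Its residue pattern (a glycine, a further glycine downstream and then a run of glycine, lysine and serine or threonine) was searched in the coding transcript with the longest reading frame of each gene in GENCODE 29 on GRCh38. It was found in 44 of 45 coding members, against 428 of 19516 coding genes (2.19%). The first match in 9 members whose levels changed is shown to let the loops of genes that moved apart be compared, 5′ to 3′ on the coding strand, with capitals at the codons of the fixed residues.
ABCA2: GGCcacaacGGGgcgGGCAAGACC
ABCA7: GGCcacaacGGGgccGGCAAGACC
ABCA3: GGCcacaacGGTgccGGGAAGACC
ABCA8: GGTcacagtGGAgctGGAAAGTCA
ABCD3: GGTccaaatGGCtgcGGAAAGAGT
ABCC3: GGGcctgtgGGCtgtGGGAAGTCC
ABCG4: GGCccctcaGGGgctGGCAAGTCT
ABCB10: GGCccaagtGGTtctGGCAAATCA
ABCE1: GGAactaatGGTattGGAAAGTCA
The loop of ABCA2 (chr9:137016299-137016322, minus strand, exon 21 of 49) and that of ABCA7 (chr19:1049406-1049429, plus strand, exon 18 of 47) were identical at 23 of 24 bases. The loop of ABCA3 (chr16:2299425-2299448, minus strand, exon 14 of 33) matched that of ABCA7 at 22 bases and that of ABCA2 at 21. The other loops shown lie in ABCD3 (chr1:94498632-94498655, plus strand, exon 17 of 23), ABCA8 (chr17:68921425-68921448, minus strand, exon 13 of 40), ABCC3 (chr17:50669183-50669206, plus strand, exon 16 of 31), ABCG4 (chr11:119154091-119154114, plus strand, exon 3 of 15), ABCB10 (chr1:229530242-229530265, minus strand, exon 8 of 13) and ABCE1 (chr4:145109172-145109195, plus strand, exon 5 of 18).

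In VASP knockdown cells the ribosome-bound ABCE1 and ABCF2, the mitochondrial ABCB10 and the peroxisomal ABCD3 were more abundant. Less abundant were the lipid transporters ABCA2, ABCA3, ABCA7 and ABCA8 and 5 exporters of subfamily C, with ABCC3 at the highest level as counted. The lipid transporters ABCG4, with the largest rise by fold, and ABCA5, and the exporter ABCG2, also rose. Of the 30 tested members, 7 rose, 10 fell and 13 did not pass (edgeR quasi-likelihood test, adjusted p under 0.05 over all genes tested). These 17 calls make 56.7% of tested members, beside 37.2% of all tested genes. Of all tested genes 18.9% rose and 18.3% fell. In 18 members, 7 higher and 11 lower, the normalised levels of the groups did not overlap, which held for 47.6% of all tested genes. The median log2 fold change was -0.08 over the tested members and -0.01 over all tested genes.

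In such bulk libraries, fewer cells that express a gene and less RNA per cell cannot be told apart. Among the called members, only ABCA8 changed by more than 2-fold, and 2 members rose and 5 fell when the test asked for a change beyond 1.2-fold. Over the same 16633 genes fewer passed that test as well, with the counts for all genes given in the last section. A correction for GC content and transcript length is described with its values further on. After it, 4 of 30 members rose and 6 fell, a share close to the 30.0% of all genes that passed in that fit. Among the members called in both fits were ABCE1, ABCF2, ABCB10 and ABCG4, which rose, and ABCA2, ABCA7, ABCA8, ABCC3 and ABCC5, which fell.

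**Figure D1:**
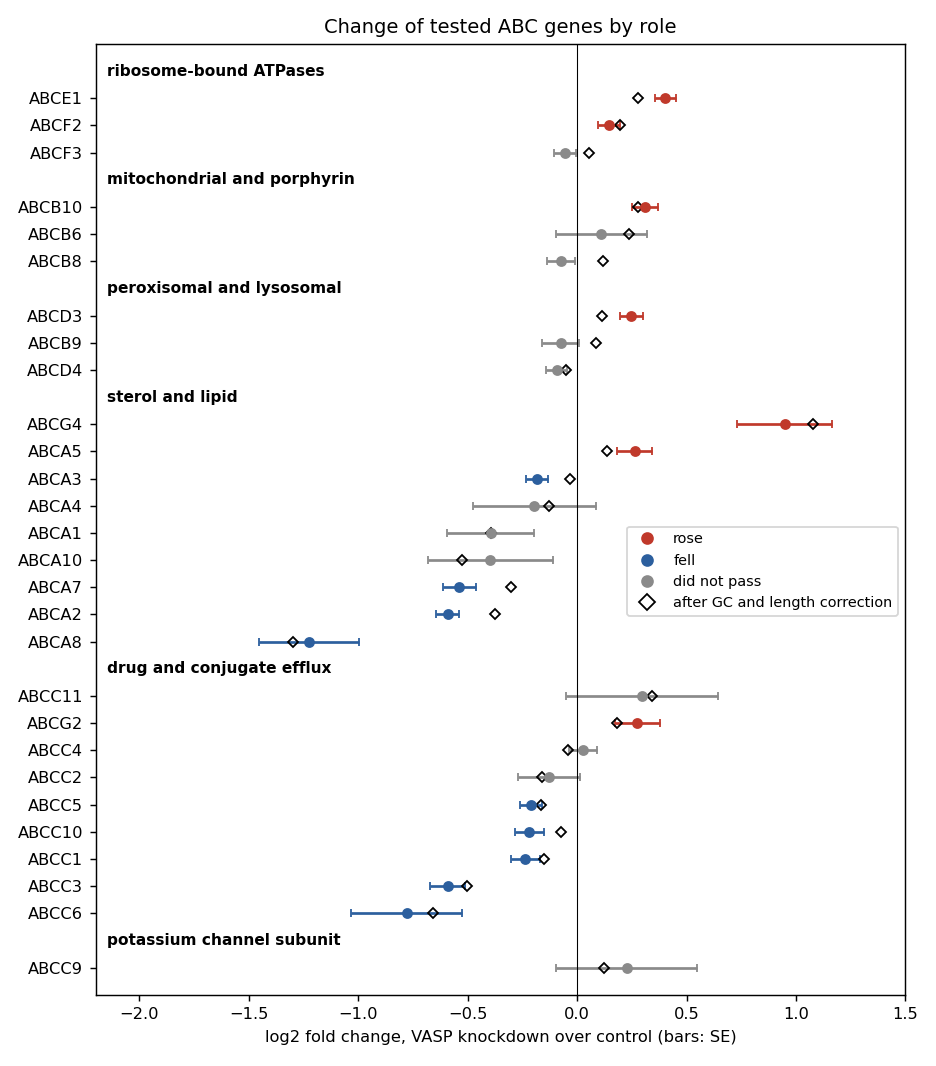
Log2 fold change (VASP knockdown over control, horizontal axis) of 28 tested ABC genes, grouped by role, with the standard error as a bar and the value after GC and length correction as an open diamond. Red points rose, blue points fell and grey points did not pass an adjusted p of 0.05; subfamily C has 5 blue points and no red one, and ABCA8 and ABCG4 lie farthest from 0.

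Levels per exon length were highest for the soluble members. ABCE1, which splits ribosomal subunits after termination, stood at 62.1 ± 6.02 TPM in knockdown and 45.3 ± 2.47 TPM in control libraries (SD, n = 3 each). ABCF2, a ribosome-associated ATPase, stood at 59.5 ± 3.11 TPM in knockdown and 51.9 ± 3.78 TPM in control libraries, so that the means of ABCE1 and ABCF2 changed places between the groups, although their ranges of mean ± SD overlapped in knockdown. ABCF3, a relative of yeast Gcn20, came next in both groups, at 42.8 ± 2.80 TPM in knockdown and 42.9 ± 3.17 TPM in control libraries. The 4 ribosome-bound members together held 40.4% of the family's summed TPM in knockdown and 35.0% in control libraries.

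Below these, ABCC3 and ABCA3 had the highest TPM as counted among the exporters and the lipid transporters. ABCC3 had 23.4 ± 2.03 TPM in knockdown and 34.0 ± 3.74 TPM in control, and ABCA3 had 30.5 ± 2.62 TPM in knockdown and 33.4 ± 0.311 TPM in control. In the control group these neighbours, and ABCD4 at 30.3 ± 0.812 TPM, lay within 1 SD of ABCC3, so their order is not resolved. Summed over the 18 sterol and lipid members the level was 62.5 ± 4.88 TPM in knockdown and 75.7 ± 3.55 TPM in control. Over the 12 drug and conjugate exporters it was 73.6 ± 5.46 TPM in knockdown and 87.0 ± 4.38 TPM in control. ABCC1 and ABCC6 are annotated on 1 further alternate sequence each, and fragments that align to several places were left uncounted. Their TPM, and so the exporter sum, may be too low. The whole family summed to 407 ± 29.4 TPM in knockdown and 400 ± 10.9 TPM in control, a difference smaller than either SD.

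**Figure D2:**
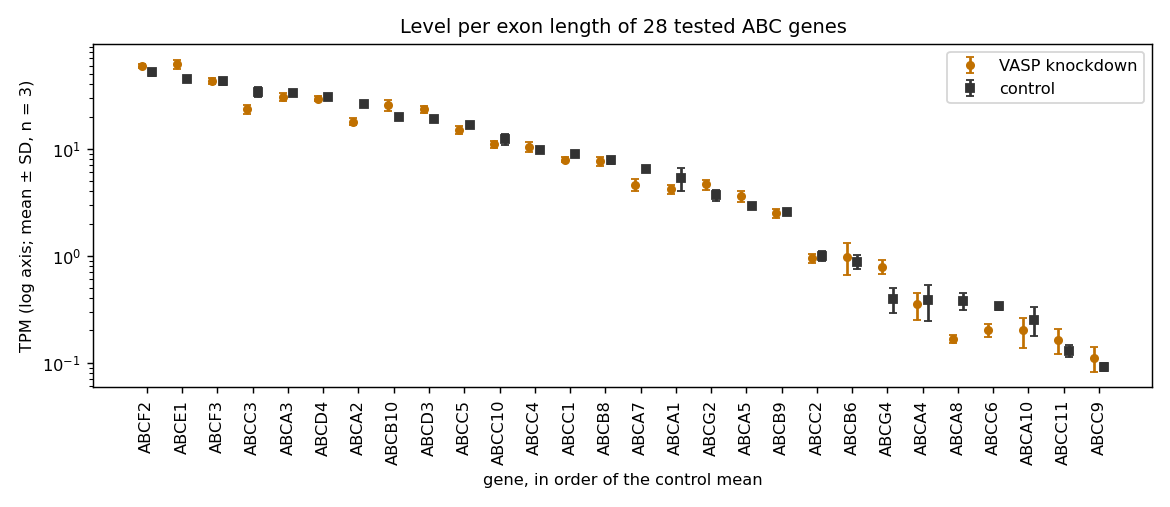
Level in TPM (log axis) of each of 28 tested ABC genes, as mean ± SD over 3 VASP knockdown libraries (orange circles) and 3 control libraries (dark squares), in order of the control mean. ABCF2, ABCE1 and ABCF3 stand at the top in both groups, and ABCC9 at the bottom, at 0.112 TPM in knockdown and 0.0912 TPM in control.

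The ribosome-bound class rose in 2 of its 3 tested members and fell in none, also with DESeq2 and at an unadjusted edgeR p under 0.05. Over all tested genes 18.9% rose and 18.3% fell, and 3 genes are too few to set against these shares. ABCE1 (ENSG00000164163, GRCh38 chromosome 4, 145098288 to 145129524, plus strand) had 4262, 3883 and 4186 counts in knockdown libraries, against 2953, 2965 and 3144 in control libraries. Every knockdown library lay above every control library. The level was 1.32-fold higher (log2 fold change 0.40 with SE 0.05, edgeR adjusted p = 1.2e-06), at 138 ± 5.71 CPM in knockdown and 104 ± 4.06 CPM in control (SD, n = 3 each). After GC and length correction its log2 fold change was 0.28 (edgeR adjusted p = 7.2e-05). Up to 276 bases of its exons are shared with ANAPC10 and OTUD4, and fragments that touch both genes were not counted.

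ABCF2 had 3450, 3416 and 3400 counts in knockdown libraries, against 2882, 2946 and 3186 in control libraries. The groups did not overlap, and the rise was small, at 1.11-fold (log2 fold change 0.15 with SE 0.05, edgeR adjusted p = 0.023). It no longer passed when control library 1 or 2 or knockdown library 2 or 3 was left out (edgeR adjusted p = 0.094, 0.084, 0.050 and 0.069), nor with upper-quartile factors (edgeR adjusted p = 0.051). ABCF3 had 2418, 2324 and 2333 counts in knockdown libraries and 2314, 2498 and 2332 in control libraries, with overlapping groups (log2 fold change -0.05 with SE 0.05, edgeR adjusted p = 0.41). ABCF1, which binds initiation factor eIF2 and ribosomes, was listed with 1, 0 and 0 counts in knockdown libraries and 0, 0 and 1 in control libraries. It lies in the histocompatibility region and is annotated on 6 further alternate sequences, where reads that align to more than 1 place were left uncounted, so its counts say little of its level.

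The promoter of ABCE1, the member with the highest TPM in knockdown, is the one member window that held a cyclic AMP response element (TGACGTCA, which reads the same on both strands). RefSeq windows of GRCh38.p14, from 250 bases before to 50 after the annotated start, were matched for 35 members with 53 windows. The ABCE1 window is shown 5′ to 3′ with the element in capitals, at position -98 from the start.
ABCE1 promoter, chr4:145098061-145098360, plus strand: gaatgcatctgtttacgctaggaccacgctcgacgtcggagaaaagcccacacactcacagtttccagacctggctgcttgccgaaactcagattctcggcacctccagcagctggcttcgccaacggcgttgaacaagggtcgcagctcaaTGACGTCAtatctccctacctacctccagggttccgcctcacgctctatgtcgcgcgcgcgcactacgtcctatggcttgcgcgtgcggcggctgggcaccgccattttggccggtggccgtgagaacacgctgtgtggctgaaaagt
This element was present in 1 of 53 member windows and in 1.85% of 35116 windows of all genes. An E-box (CACGTG, its own reverse complement) was present in 9 of 53 member windows and 7.26% of all windows. CCAAT, searched on both strands, was present in 12 member windows and 34.6% of all windows, TGACNNNGC on both strands in 12 member windows and 13.3% of all windows, and CCGGAAGT on both strands in 1 member window and 4.14% of all windows. These matches are letters in a window and no measure of binding, and a gene with several starts has several windows that can overlap.

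Of 16 tested genes that work with ABCE1 and the F subfamily at the ribosome, 7 rose and none fell. This made 43.8%, beside 37.2% of all genes called and 18.9% that rose. The counts were the same by DESeq2 and at an unadjusted edgeR p under 0.05. After GC and length correction 6 rose and none fell, beside 30.0% of all genes that passed in that fit. EIF3J, the initiation factor subunit that helps ABCE1 in recycling, had 2648, 2743 and 2796 counts in knockdown libraries and 1939, 1989 and 2167 in control libraries. The groups were apart (log2 fold change 0.39 with SE 0.05, edgeR adjusted p = 7.6e-06). GSPT1, the release factor eRF3a, rose with a log2 fold change of 0.32 (SE 0.05, edgeR adjusted p = 2.9e-05), and EIF2S1, the alpha subunit of eIF2, with 0.30 (SE 0.05, edgeR adjusted p = 4.2e-05). The median log2 fold change of the list was 0.05, beside -0.01 for all tested genes.

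Among the mitochondrial and porphyrin members, ABCB10 rose. This gene, an inner membrane transporter tied to haem synthesis, had 1241, 1070 and 1162 counts in knockdown libraries, against 912, 894 and 915 in control libraries. The lowest knockdown library exceeded the highest control library. It was 1.24-fold higher (log2 fold change 0.31 with SE 0.06, edgeR adjusted p = 0.00023) and passed after GC and length correction (log2 fold change 0.28, edgeR adjusted p = 0.00065). ABCB6 had 41 to 73 counts in knockdown libraries and 40 to 54 in control libraries. ABCB8 had 716 to 794 in knockdown and 737 to 800 in control libraries, and both genes had overlapping groups. Of the 5205 exon bases of ABCB6, 2841 are shared with AC068946.2. Fragments that touch both of these genes were not counted, so the counts of ABCB6 may be too low.

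In the iron-sulfur and haem list around these members, 1 gene rose and 2 fell of 21 tested (14.3%, beside 37.2% of all tested genes). HSPA9, the mitochondrial chaperone of iron-sulfur assembly, rose (log2 fold change 0.36 with SE 0.05, edgeR adjusted p = 7.9e-06). The haem synthesis enzymes PPOX (log2 fold change -0.34 with SE 0.08, edgeR adjusted p = 0.0013) and CPOX (-0.19, SE 0.05, edgeR adjusted p = 0.0075) fell. After GC and length correction 5 rose and 2 fell, beside 30.0% of all genes that passed in that fit. The count of 1 that rose became 2 without control library 3 or knockdown library 2, and the count of 2 that fell became 1 without knockdown library 2 and 4 with upper-quartile factors.

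The peroxisomal ABCD3 was more abundant in knockdown libraries. ABCD3 (PMP70), which imports branched and dicarboxylic acyl-CoA, had 1935, 1823 and 1925 counts in knockdown libraries, against 1642, 1488 and 1527 in control libraries. It was 1.19-fold higher, with groups that did not overlap (log2 fold change 0.25 with SE 0.05, edgeR adjusted p = 0.0008). The GC content of its transcript is 37.7%, and after correction its log2 fold change was 0.11 (edgeR adjusted p = 0.078).

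ABCD4, which moves cobalamin out of lysosomes and has the highest TPM of the peroxisomal and lysosomal class in both groups, had 2854, 2784 and 2712 counts in knockdown libraries and 2925, 2881 and 2860 in control libraries. Its groups did not overlap and it did not pass (log2 fold change -0.09 with SE 0.05, edgeR adjusted p = 0.11), although it did with upper-quartile factors (log2 fold change -0.12, edgeR adjusted p = 0.045). ABCB9, a lysosomal peptide transporter, had 309 to 375 counts in knockdown libraries and 351 to 367 in control libraries. Up to 2752 of its 13291 exon bases are shared with AC026362.1, ARL6IP4 and OGFOD2, so its counts may be too low. Among 19 tested genes of peroxisome assembly and cobalamin handling, 4 rose and 3 fell (36.8%, beside 37.2% of all tested genes). After correction 3 rose and 3 fell, beside 30.0% of all genes, and 2 rose with upper-quartile factors. PEX6, an ATPase of peroxisome import, fell (log2 fold change -0.72 with SE 0.06, edgeR adjusted p = 1.0e-09), as did CD320, the receptor for cobalamin bound to transcobalamin (log2 fold change -0.40 with SE 0.05, edgeR adjusted p = 4.1e-06), whereas MMADHC, a cobalamin trafficking protein, rose (log2 fold change 0.26 with SE 0.05, edgeR adjusted p = 0.00022).

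Of the 18 sterol and lipid members, 9 were tested, and 2 rose and 4 fell (66.7%, beside 37.2% of all tested genes). After GC and length correction 1 rose and 3 fell, beside 30.0% of all genes that passed in that fit. ABCA2, a lipid transporter of late endosomes and lysosomes (ENSG00000107331, chromosome 9, 137007234 to 137028922, minus strand), had 2295, 2170 and 2099 counts in knockdown libraries, against 3450, 3200 and 2961 in control libraries. All knockdown libraries were below all control libraries. It was 1.51-fold lower (log2 fold change -0.59 with SE 0.05, edgeR adjusted p = 1.2e-08), at 73.2 ± 1.69 CPM in knockdown and 110 ± 7.94 CPM in control (SD, n = 3 each), and stayed called after correction (log2 fold change -0.38, edgeR adjusted p = 5.2e-06).

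ABCA7, a phospholipid transporter tied to phagocytosis, had 444, 376 and 401 counts in knockdown libraries and 601, 576 and 547 in control libraries. The groups were apart, and the level was 1.45-fold lower (log2 fold change -0.54 with SE 0.07, edgeR adjusted p = 5.8e-06). ABCA3, which loads surfactant phospholipid into lamellar bodies and has the highest TPM of the class, had 2675, 2474 and 2410 counts in knockdown libraries and 2894, 2717 and 2730 in control libraries. It was 1.14-fold lower (log2 fold change -0.18 with SE 0.05, edgeR adjusted p = 0.0046), and after GC and length correction the log2 fold change was -0.03 (edgeR adjusted p = 0.63). ABCA7 kept a log2 fold change of -0.30 after correction (edgeR adjusted p = 0.0022).

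The genes ABCA5, ABCA6, ABCA8, ABCA9 and ABCA10 lie side by side on chromosome 17, between 68867289 and 69327244, all on the minus strand. Of these, ABCA8 fell and ABCA5 rose. ABCA8 had 18, 23 and 19 counts in knockdown libraries, against 57, 40 and 40 in control libraries. Its groups did not overlap, and it was 2.34-fold lower (log2 fold change -1.23 with SE 0.23, edgeR adjusted p = 0.00019). ABCA5, an endosomal and lysosomal lipid transporter at the other end of the cluster, had 487, 467 and 549 counts in knockdown libraries and 424, 410 and 384 in control libraries. The groups did not overlap (log2 fold change 0.26 with SE 0.08, edgeR adjusted p = 0.012), and this call was lost without knockdown library 3 (log2 fold change 0.18, edgeR adjusted p = 0.11) and after GC and length correction (log2 fold change 0.14, edgeR adjusted p = 0.17). ABCA10, which shares 318 exon bases with ABCA5, had 12 to 21 counts in knockdown libraries and 16 to 29 in control libraries and did not pass (log2 fold change -0.40 with SE 0.29, edgeR adjusted p = 0.29). ABCA9 had 0, 0 and 1 counts in knockdown libraries and 5, 2 and 4 in control libraries, below the filter, and ABCA6 had at most 3 counts in knockdown and 5 in control libraries.

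ABCG4, a sterol exporter best known in brain, had 44, 54 and 59 counts in knockdown libraries, against 28, 32 and 19 in control libraries. The groups did not overlap at this low level, and it was 1.93-fold higher (log2 fold change 0.95 with SE 0.22, edgeR adjusted p = 0.0013; after GC and length correction 1.08, edgeR adjusted p = 0.00077). ABCA1, which moves cholesterol and phospholipid to apolipoprotein A-I, had 539, 518 and 449 counts in knockdown libraries and 834, 589 and 503 in control libraries. The groups overlapped and the control libraries were widely spread (log2 fold change -0.40 with SE 0.20, edgeR adjusted p = 0.18), and it passed without control library 3 (log2 fold change -0.54, edgeR adjusted p = 0.013). ABCA4 had 22 to 43 counts in knockdown libraries and 22 to 50 in control libraries, with overlapping groups.

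In the sterol handling list, 1 of 16 tested genes rose and 5 fell (37.5%), beside 37.2% for all genes. NR1H3, the sterol receptor LXR alpha, which drives ABCA1 and ABCG1, had 526, 520 and 484 counts in knockdown libraries and 739, 722 and 649 in control libraries (log2 fold change -0.50 with SE 0.07, edgeR adjusted p = 5.8e-06). SCARB1, the receptor for high density lipoprotein, fell (log2 fold change -0.33 with SE 0.05, edgeR adjusted p = 3.7e-05), and NCEH1, a cholesteryl ester hydrolase, rose (log2 fold change 0.22 with SE 0.05, edgeR adjusted p = 0.00065). The count of 5 that fell became 2 after GC and length correction, 3 without control library 2 or knockdown library 2, and 2 without knockdown library 3. The count of 1 that rose became 2 without control library 1 or 3, with library totals alone or with no low-count filter.

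Of the 12 drug and conjugate exporters, 9 were tested, 1 rose and 5 fell, beside 18.9% of all tested genes that rose and 18.3% that fell. DESeq2 gave 0 that rose and 4 that fell. The fit with GC and length correction gave 0 and 2 of 9, a smaller share than the 30.0% of all genes that passed in that fit. ABCC3 (MRP3), a basolateral exporter of glucuronides (ENSG00000108846, chromosome 17, 50634777 to 50692253, plus strand), had 2527, 2488 and 2137 counts in knockdown libraries, against 3801, 3651 and 3029 in control libraries. The highest knockdown library lay below the lowest control library. It was 1.51-fold lower (log2 fold change -0.59 with SE 0.08, edgeR adjusted p = 0.00011), at 79.8 ± 6.14 CPM in knockdown and 120 ± 13.7 CPM in control (SD, n = 3 each), and its log2 fold change after correction was -0.50 (edgeR adjusted p = 0.00012).

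ABCC5, ABCC1 and ABCC10 fell by smaller folds than ABCC3. ABCC5 (MRP5), an exporter of cyclic nucleotides, had 1849, 1728 and 1823 counts in knockdown libraries and 2010, 2020 and 2045 in control libraries, and was 1.16-fold lower (log2 fold change -0.21 with SE 0.05, edgeR adjusted p = 0.0019; after correction -0.17, edgeR adjusted p = 0.010). ABCC1 (MRP1), which exports glutathione conjugates, had 651, 646 and 598 counts in knockdown libraries and 727, 685 and 760 in control libraries (log2 fold change -0.24 with SE 0.07, edgeR adjusted p = 0.0064). In both genes the groups did not overlap. ABCC1 is annotated on 1 further alternate sequence, so its counts may be too low. ABCC10 (MRP7) had 984, 958 and 879 counts in knockdown libraries and 969, 1153 and 1069 in control libraries, and the normalised levels did not overlap (log2 fold change -0.22 with SE 0.07, edgeR adjusted p = 0.010). ABCC1 and ABCC10 did not pass after GC and length correction (edgeR adjusted p = 0.071 and 0.39), and ABCC10 did not pass without control library 2 (edgeR adjusted p = 0.10) or knockdown library 3 (edgeR adjusted p = 0.056).

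ABCC6 (MRP6), which mediates ATP release and is mutated in pseudoxanthoma elasticum, had 15, 20 and 14 counts in knockdown libraries and 26, 27 and 29 in control libraries. The groups were apart (log2 fold change -0.78 with SE 0.25, edgeR adjusted p = 0.018), but the call was lost without knockdown library 1 or 3 (edgeR adjusted p = 0.072 and 0.073) and after correction (edgeR adjusted p = 0.052). Its shorter copy ABCC6P1 has 3431 exon bases, against 7569 in ABCC6. ABCC6P1 had 66, 72 and 65 counts in knockdown libraries and 76, 72 and 50 in control libraries, more than ABCC6 itself. The division of fragments between these genes is therefore uncertain. ABCC6 is also annotated on 1 further alternate sequence, so its counts may be too low.

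The breast cancer resistance protein ABCG2 was the exporter that rose. It had 300, 269 and 258 counts in knockdown libraries, against 259, 200 and 205 in control libraries. The knockdown libraries averaged higher, but control library 1 reached into their range, so the groups overlapped (1.21-fold, log2 fold change 0.28 with SE 0.10, edgeR adjusted p = 0.035). The call was lost without control library 2 or 3 or knockdown library 1 or 2 (edgeR adjusted p = 0.19, 0.10, 0.14 and 0.060), with upper-quartile factors (edgeR adjusted p = 0.056), with DESeq2 (adjusted p = 0.073) and after GC and length correction (edgeR adjusted p = 0.17). P-glycoprotein (ABCB1) had 0, 0 and 1 counts in knockdown libraries and none in control libraries, within the floor of 3 counts, so no change could be detected at this depth. ABCC2 had 74 to 81 counts in knockdown libraries and 75 to 90 in control libraries, ABCC4 had 903 to 1031 in knockdown and 844 to 967 in control libraries, and ABCC11 had 9 to 17 in knockdown and 9 to 11 in control libraries. None of these 3 passed (edgeR adjusted p = 0.51, 0.78 and 0.54).

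**Figure D3:**
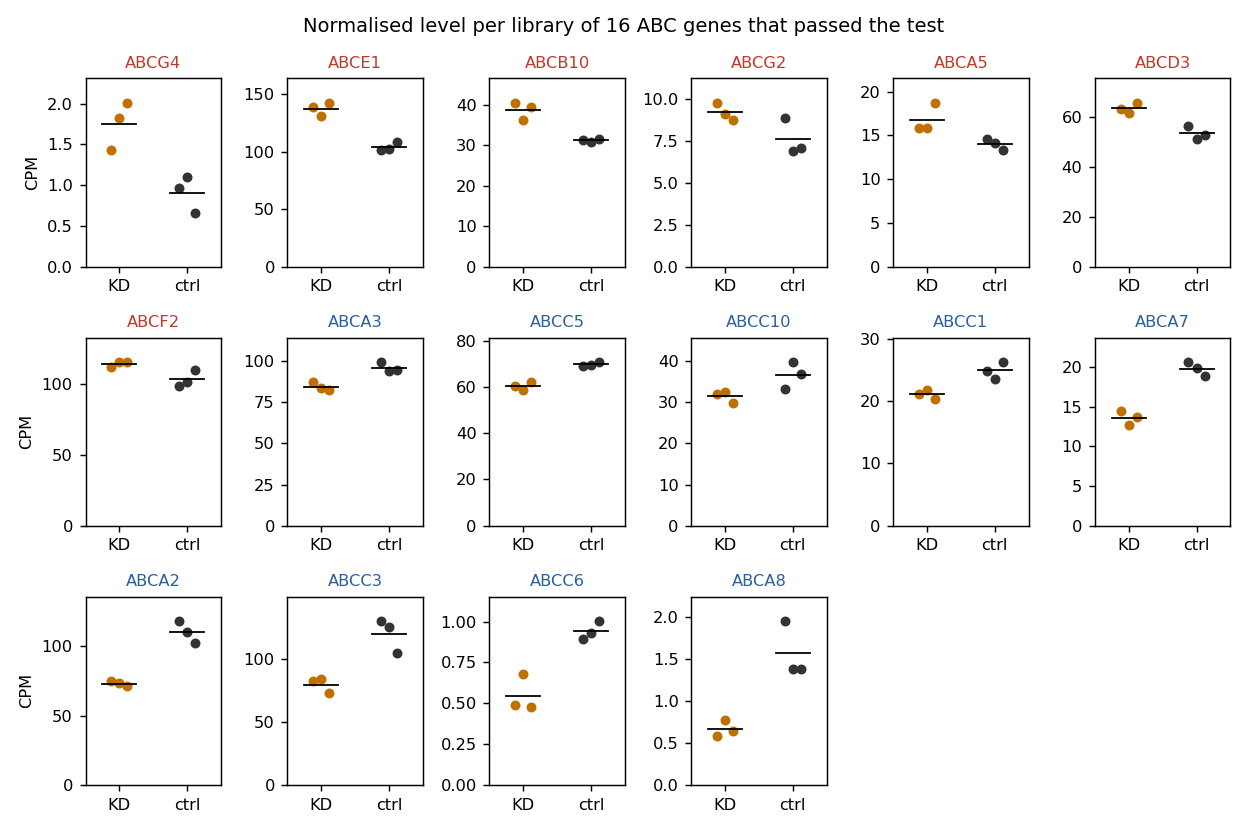
Normalised level (CPM, each axis starting at 0) of 16 called ABC genes in each of 3 VASP knockdown (KD, orange) and 3 control (ctrl, dark) libraries, with the mean as a line; gene names in red rose and in blue fell. The groups overlap in the ABCG2 panel, and ABCC10 and ABCF2 have narrow gaps between them.

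Among regulators of drug metabolism and conjugating enzymes, 1 of 17 tested genes rose and 6 fell (41.2%, beside 37.2% of all tested genes). After correction 2 rose and 4 fell, beside 30.0% of all genes. NFE2L2 (NRF2), a transcription factor that drives several subfamily C exporters, rose (log2 fold change 0.33 with SE 0.05, edgeR adjusted p = 1.3e-05). It had 3402, 3554 and 3463 counts in knockdown libraries and 2727, 2706 and 2639 in control libraries. Of subfamily C, ABCC3 and ABCC1 fell and ABCC2 and ABCC4 did not pass, and a link to NFE2L2 was not tested. UGCG, glucosylceramide synthase, fell (log2 fold change -0.39 with SE 0.05, edgeR adjusted p = 2.1e-06), as did the oxidase CYP1B1 (log2 fold change -0.47 with SE 0.09, edgeR adjusted p = 0.00084). Of 12 tested membrane scaffolds and channel partners, 2 rose and 2 fell (33.3%, beside 37.2% of all tested genes). The linkers RDX and EZR rose (log2 fold changes 0.29 and 0.25, edgeR adjusted p = 3.4e-05 and 0.00022). MSN, the third of the ezrin family, did not pass (log2 fold change -0.02, edgeR adjusted p = 0.76), and BSG (basigin), a chaperone of membrane transporters, fell (log2 fold change -0.47 with SE 0.05, edgeR adjusted p = 3.0e-07). The count of scaffolds that fell became 1 with DESeq2, with its size factors in edgeR, with library totals alone, and when control library 1 or 2 or knockdown library 1 or 3 was left out. Over all partner lists, 16 rose and 18 fell of 101 tested (33.7%, beside 37.2% of all tested genes).

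ABCC9 (SUR2), the sulfonylurea receptor subunit of the ATP-sensitive potassium channel, was the one tested member of its class, with 17, 11 and 13 counts in knockdown libraries and 12, 10 and 12 in control libraries (log2 fold change 0.23 with SE 0.32, edgeR adjusted p = 0.62). Its relative ABCC8 (SUR1) had 0 counts in knockdown libraries and at most 1 in control libraries.

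The 16 members below the filter had at most 12 counts in any library. ABCA12, the keratinocyte lipid transporter, reached that value with 1, 11 and 12 counts in knockdown libraries and 7, 8 and 7 in control libraries. ABCB4, ABCA13 and ABCG8 had at most 4, 2 and 2 counts in knockdown libraries and at most 4 each in control libraries. The cholesterol exporter ABCG1 had 0, 0 and 1 counts in knockdown libraries and 2, 0 and 0 in control libraries, and its liver and gut relative ABCG5 was listed at 0 in all 6 libraries. ABCB5, ABCB11, ABCC12, ABCC13 and ABCD2 had at most 1 count in knockdown libraries and at most 2 in control libraries. The peptide transporters TAP1 and TAP2 and the chloride channel CFTR were not tested either, with at most 10, 9 and 1 counts in any library, and TAP1 and TAP2 are annotated on further alternate sequences like ABCF1.

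By subfamily, 5 of 9 tested genes of C fell and none rose, also with none that rose at an unadjusted edgeR p under 0.05 or with DESeq2, by which 4 fell, and 2 fell after GC and length correction. In A, 1 of 8 rose and 4 fell, and 0 rose and 3 fell after correction. Over all tested genes 18.9% rose and 18.3% fell. The fit with correction called 30.0% of 16207 genes, with 2882 that rose and 1977 that fell. Both tested members of G rose, of which ABCG4 alone passed with DESeq2 and after correction. Members with a single Walker A match, 10 tested, had 4 that rose and 1 that fell, with a median log2 fold change of 0.12, and members with 2 matches, 20 tested, had 3 that rose and 9 that fell, with a median of -0.20. After correction 2 rose and 1 fell of those with a single match, and 2 rose and 5 fell of those with 2 matches. The difference between these classes was not tested.

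Fold changes of the members were lower at higher GC content, as they were over all genes. Members that rose had a median transcript GC content of 41.2%, members that fell 59.6% and members not called 51.5%. Over the 30 tested members the Spearman correlation of log2 fold change with GC content was -0.41, and over 12668 coding genes it was -0.50, both descriptions across genes that share the same libraries. The median log2 fold change of coding genes was 0.20 in the lowest GC decile and -0.24 in the highest. After correction the correlation among members was -0.16. The part of base composition in each change was not tested beyond this correction, under which ABCA3, ABCA5, ABCC1, ABCC6, ABCC10, ABCD3 and ABCG2 did not pass.

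**Figure D4:**
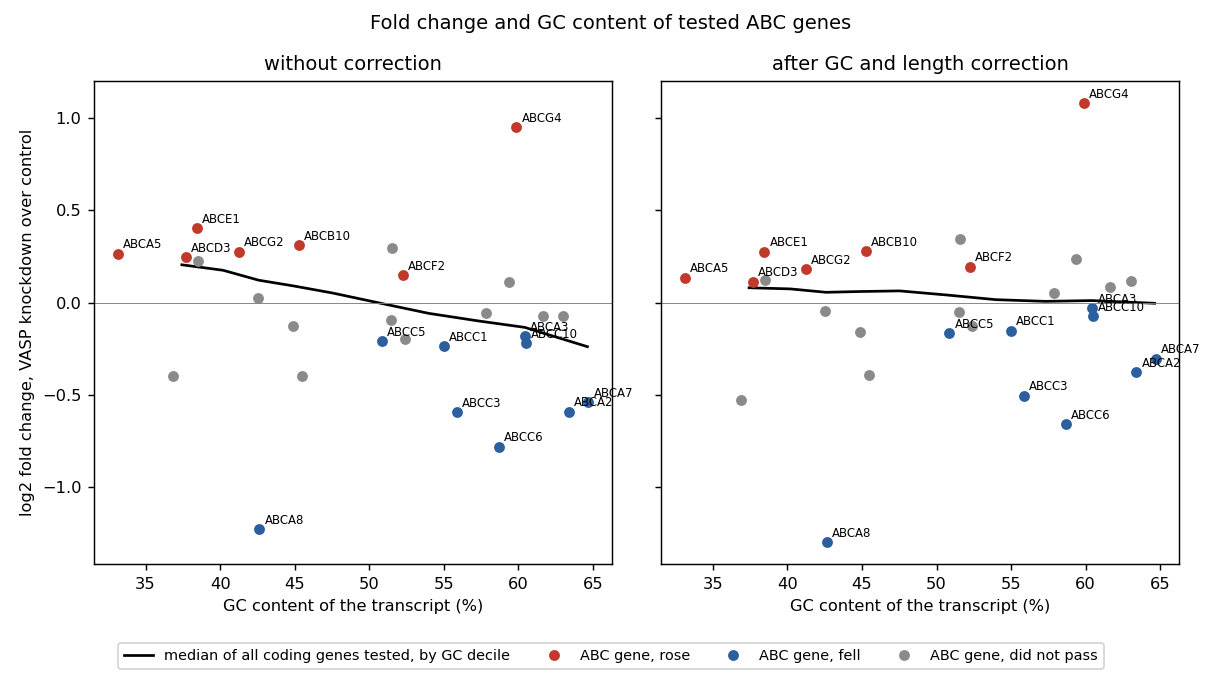
Log2 fold change (VASP knockdown over control) against the GC content of the transcript in percent for 28 tested ABC genes, before (left) and after (right) correction for GC content and length, with the median of all coding genes by GC decile as a line. Before correction the line runs from 0.20 to -0.24 and ABCA8 and ABCG4 lie far from the line in both panels.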

How the data were processed

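Paired-end RNA sequencing counts per gene symbol were deposited by the authors as whole numbers, not normalized, with merged exon lengths in bases. The counter was featureCounts 1.6.4 over GENCODE 32 exons on GRCh38, alternate sequences included, per the file headers. Trim Galore 0.6.4 and STAR 2.7.1a stand in the submitters' processing notes. At its defaults featureCounts takes no account of strand and skips fragments that align to several places or touch several symbols. The names of the 3 control columns extend the title of 1 control sample, so control libraries are numbered in table order, as names only.

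After filterByExpr and TMM scaling, genes were tested by edgeR 4.0.16 in R 4.3.3 (quasi-likelihood, robust, two-sided, group as sole term). Benjamini-Hochberg adjustment ran over 16633 genes, with a threshold of 0.05. The fit was run on simulated data too, but with few changed genes and no GC trend, unlike these data. The biological coefficient of variation was 4.81%. CPM are TMM-scaled. TPM, not TMM-scaled, use exon lengths on the main chromosome. GC content, coding sequences and overlaps came from GENCODE 29 or the table. The correction used per-library natural splines with 5 degrees of freedom. Alternatives were DESeq2 1.42.0, other scalings, filters, a fold change of 1.2 as the null, and each library left out. Scaling by library totals alone was chosen after seeing the data. Floors cover counting error only.

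Members and partner lists were chosen with earlier results of these data known. Of the members, 2 are not reported here. Named otherwise were every called member, the highest by TPM in each role, members under the filter by their counts, and up to 3 genes of smallest p per partner list.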

Additional observations from a re-analysis of the deposited data

How the results depend on the processing

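The 17 called members kept their direction in every alternative that gave them a value, and ABCC6 had none under the filter of 1 CPM in 3 libraries. With GC and length correction 4 members rose and 6 fell, and 1977 of all genes fell. Against a fold change of 1.2, 2 members rose and 5 fell, 324 of all genes rose and 629 fell, and in the partner lists 0 rose and 5 fell. With a library left out, 5 to 6 members rose and 8 to 11 fell. DESeq2 gave 6 and 9, with no adjusted p for ABCC6, upper-quartile factors 5 and 11, and no low-count filter 7 and 11, ABCA9 added. Log2 fold changes of uncalled members turned sign with the correction in ABCB8 (0.12), ABCB9 (0.085), ABCC4 (-0.043) and ABCF3 (0.053), and with a library left out ranged over both signs in ABCA4 (-0.46 to 0.12), ABCB6 (-0.18 to 0.29), ABCB9 (-0.11 to 0.0015) and ABCC4 (-0.019 to 0.073). The cause was not tested. No paired analysis was possible because the names of the control columns all extend the title of 1 control sample, so their last numbers name no sample in the labels.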
